A study of Mus musculus with 12 samples.

Results

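The change in messenger RNA that wild-type mouse CD8 T cells showed after 24 h of stimulation is described across all measured genes. It rests on 6 of the 12 libraries of an RNA sequencing series, chosen by their source labels: 3 of untreated wild-type cells, called fresh here, and 3 of wild-type cells treated for 24 h, called stimulated. Both groups came from spleens of C57BL/6 mice 6 to 8 weeks old that carried OT-I, a transgenic T cell receptor for an ovalbumin peptide, so most CD8 T cells of such mice share 1 specificity. Stimulated cells had been kept with plate-bound anti-CD3 and anti-CD28 antibodies at 1 µg/ml each. The other 6 libraries hold cells of the same 2 kinds from OT-I mice in which a Cre recombinase driven by the Cd4 promoter deletes Otub1, a deubiquitinase gene. They entered the fit as an estimate of the spread and serve as the nearest comparison at the end.

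No library analysed here holds cells that were cultured without antibody, so stimulation, 24 h of culture and removal from the spleen form 1 factor whose shares cannot be told apart. The design names naive splenic CD8 T cells, whereas a cell type tag names dendritic cells and the extraction text speaks of fresh splenic cells for every library. The labels do not say whether the 3 libraries of a group come from separate animals, and a p-value here speaks only of the scatter among libraries, which may be technical.

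A naive CD8 T cell is a small, quiescent cell that recirculates between blood and lymphoid organs. Ligation of its receptor through CD3, with costimulation through CD28, starts calcium, MAP kinase and NF-kappaB signalling, then growth under MYC and mTORC1, and within about a day DNA synthesis. Activated cells take up more glucose and amino acids, make interleukin 2 and its high-affinity receptor, lose the homing receptors of naive cells and arm themselves with granzymes and cytokines.

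Libraries held between 15064488 and 24161534 gene counts, and levels are given as CPM, the counts of a gene scaled to 1000000 gene counts of its library with TMM factors, as mean ± SD of 3 libraries. CPM is relative: it cannot show a change in total RNA per cell, and in these bulk samples fewer cells of a type and less RNA per cell cannot be told apart. On the first principal component, which held 93.1% of the variance of the 6 libraries, fresh and stimulated libraries stood apart, from -85.7 to -82.1 against 83.0 to 84.4. The second (2.46%) set fresh replicate 3, at -26.9, apart from the other fresh libraries at 12.3 and 15.1. Fresh replicate 3 also was the only 1 of the 6 with more than trace reads of Y-linked genes, so the fresh group holds RNA of more than 1 animal. Fresh replicate 1 had more interferon-response RNA than the other fresh libraries.

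The labelled cell type was compared with listed markers, which were chosen with earlier results of these data known. Cd8a, a chain of the CD8 coreceptor, stood at 1501, 1497 and 1557 CPM in the fresh libraries and 659, 563 and 556 CPM in the stimulated libraries. Cd3e, a signalling chain of the receptor complex, stood at 389, 396 and 384 CPM in the fresh libraries and 173, 171 and 177 CPM in the stimulated libraries. These T cell markers were present in all 6 libraries. Antigen-presenting cell markers such as Cd74, the invariant chain of MHC class II, were found as well, at 599.8, 661 and 720.3 CPM in the fresh libraries and 49.9, 64.5 and 59.4 CPM in the stimulated libraries. Those values are taken up again below, since they were lower after culture.

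Most of the transcriptome differed between stimulated and fresh cells. Of 12759 genes that passed the filter on low counts, edgeR's quasi-likelihood test called 5207 higher (40.8% of those tested) and 5288 lower (41.4%) at an adjusted p under 0.05. In 84.1% of the tested genes the 3 stimulated libraries did not overlap the 3 fresh ones. Because a call by the test alone therefore says little about any group of genes, counts below also use a minimum of 2-fold, which 2383 genes passed upward (18.7%) and 2739 downward (21.5%). Larger changes were more often falls: 817 genes were at least 4-fold higher and 1251 at least 4-fold lower, and 97 against 161 changed at least 32-fold. The median log2 fold change over all tested genes was -0.03, a value that TMM scaling holds near 0, so it cannot show whether all genes shifted together.

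**Figure D1:**
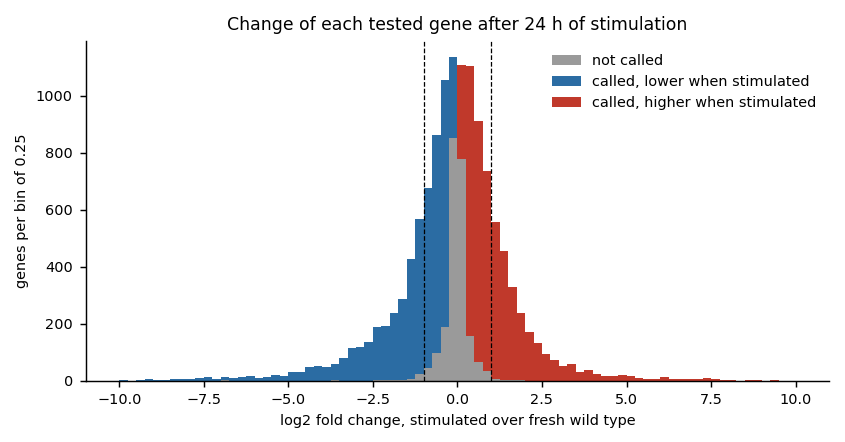
Number of tested genes (vertical axis) by log2 fold change of stimulated over fresh wild-type cells (horizontal axis, bins of 0.25; genes beyond ±10 are drawn in the last bins, dashed lines mark 2-fold). Grey genes were not called, and the called genes, 5288 lower and 5207 higher, spread on both sides with a longer tail to the left.

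Receptors that mark an activated T cell were mostly higher. Il2ra (chr2:11642792-11693194 in GRCm38.p6), the chain that gives the interleukin 2 receptor its high affinity, measured 6.19, 4.31 and 3.8 CPM in the fresh libraries and 969, 952 and 914 CPM in the stimulated libraries. The 3 fresh libraries were all near the bottom of the range and the 3 stimulated ones lay close together (edgeR log2 fold change 7.63 ± 0.12 SE, adjusted p = 2.3e-16). Of the 22 tested activation and costimulation receptors, 12 were at least 2-fold higher and 3 at least 2-fold lower, with a median log2 fold change of 1.59.

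Tnfrsf9, which encodes the costimulatory receptor 4-1BB, rose from 7.73 ± 1.84 to 418 ± 34.3 CPM and Tnfrsf4, the OX40 gene, from 5.78 ± 1.22 to 45.8 ± 3.3 CPM. Cd44, the adhesion receptor used to tell antigen-experienced from naive cells, rose from 56.5 ± 4.06 to 169.7 ± 16.6 CPM, and Icos from 50.7 ± 1.35 to 153 ± 9.08 CPM. Tfrc, the transferrin receptor through which dividing cells take up iron, rose from 150.2 ± 9.49 to 1090.3 ± 86.8 CPM. Not every classical activation marker was higher in stimulated than in fresh cells. Cd69, an early activation antigen that retains cells in tissue, was lower, from 379.5 ± 64.4 to 263 ± 11.7 CPM (edgeR log2 fold change -0.53 ± 0.09 SE, adjusted p = 8.8e-05), and Cd40lg fell from 14.2 ± 2.85 to 2.62 ± 0.755 CPM. Cd40lg also belongs to the CD4 T cell marker list described below, and the part of such cells in its fall was not tested. Fresh libraries held 429.9, 307 and 402 CPM of Cd69 and stimulated ones 252, 263 and 275 CPM, with no overlap.

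Inhibitory receptors split into a part that rose and a part that fell. Of 13 tested, 7 were at least 2-fold higher and 5 at least 2-fold lower. Pdcd1, the gene of the checkpoint receptor PD-1, measured 1.64, 1.7 and 1.8 CPM in the fresh libraries and 87.5, 98.5 and 115 CPM in the stimulated libraries. It was low but detected in each fresh library and far higher in each stimulated one (edgeR log2 fold change 5.87 ± 0.20 SE, adjusted p = 3.6e-13). Lag3, which binds MHC class II, rose from 7.49 ± 1.14 to 111 ± 5.9 CPM, and the PD-1 ligand genes Cd274 and Pdcd1lg2 rose with log2 fold changes of 1.34 and 4.64. Havcr2, the TIM-3 gene, fell from 12.3 ± 2.17 to 3.57 ± 1.12 CPM.

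Genes of the naive state fell as a group. Of 28 tested genes of naive identity, quiescence and homing, 22 were at least 2-fold lower, none at least 2-fold higher, and the median log2 fold change was -2.17. Klf2, a transcription factor that keeps naive cells quiescent and drives their exit receptors, measured 436, 356 and 452 CPM in the fresh libraries and 10.3, 8.24 and 10.7 CPM in the stimulated libraries (edgeR log2 fold change -5.41 ± 0.11 SE, adjusted p = 1.1e-15). S1pr1, the sphingosine 1-phosphate receptor by which lymphocytes leave lymphoid organs, measured 514, 512 and 576 CPM in the fresh libraries and 13.4, 10.5 and 10.6 CPM in the stimulated libraries (edgeR log2 fold change -5.54 ± 0.11 SE, adjusted p = 1.4e-15). For both genes the lowest fresh library was far above the highest stimulated one.

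Il7r, the receptor chain for the survival cytokine interleukin 7, fell from 539 ± 34.5 to 21.6 ± 2.84 CPM. The naive T cell transcription factors Tcf7 and Lef1 fell less far, from 1444 ± 26.2 to 283 ± 21.7 CPM and from 406 ± 3.26 to 103 ± 0.972 CPM. Txnip, which limits glucose uptake, fell from 439 ± 76.7 to 69.4 ± 2.55 CPM, and Pik3ip1, an inhibitor of PI3 kinase, from 142 ± 16.04 to 17.7 ± 0.726 CPM. Rasgrp2, an activator of the integrin regulator Rap1, fell from 389 ± 14.2 to 17.3 ± 0.515 CPM.

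The 4 members of this list that rose were Ccr7, Foxp1, Bach2 and Slfn2, with log2 fold changes of 0.36, 0.29, 0.50 and 0.69. Ccr7 guides naive cells into lymph nodes, and it stood at 506, 447 and 525 CPM in the fresh libraries and 573, 703 and 619.6 CPM in the stimulated libraries (edgeR log2 fold change 0.36 ± 0.12 SE, adjusted p = 0.015). The call rests on single libraries: the edgeR adjusted p is 0.070 without fresh replicate 2 and 0.072 without stimulated replicate 2.

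Trafficking receptors mostly fell. Of 17 tested chemokine and lipid receptors, 12 were at least 2-fold lower and 2 at least 2-fold higher. Ccr9, the gut-homing receptor that naive CD8 cells also carry, fell from 189 ± 16.8 to 4.26 ± 1.06 CPM and Cxcr4 from 377 ± 72.2 to 6.71 ± 0.271 CPM. Cxcr3, a receptor of inflammatory homing that effector cells are known for, was lower at this time, from 25.02 ± 4.41 to 13.3 ± 3.09 CPM (edgeR log2 fold change -0.90 ± 0.21 SE, adjusted p = 9.8e-04).

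Genes of the receptor complex and its proximal signalling were mostly lower. Of 18 T cell identity genes 14 were called lower and 3 higher, Cd5 and Lcp2 among them, while 8 were at least 2-fold lower. Cd8b1, the second CD8 chain, fell from 1198 ± 72.8 to 226 ± 21.6 CPM, further than Cd8a, which fell with a log2 fold change of -1.36. Cd3g fell from 470.4 ± 5.41 to 168 ± 5.23 CPM and the coreceptor kinase gene Lck from 964 ± 15.3 to 519 ± 10.8 CPM. Cd5, a receptor that damps the antigen receptor, rose from 321 ± 11.6 to 423 ± 33.03 CPM (edgeR log2 fold change 0.40 ± 0.10 SE, adjusted p = 0.0017).

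Transcription factors moved in both directions. Of 36 tested factors known to be induced by activation, 20 were at least 2-fold higher and 8 at least 2-fold lower. Irf4, which scales the effector programme with the strength of the receptor signal, measured 60.6, 63.6 and 83.03 CPM in the fresh libraries and 807, 835 and 816 CPM in the stimulated libraries (edgeR log2 fold change 3.57 ± 0.21 SE, adjusted p = 1.9e-10). Myc, the driver of growth and metabolic change, measured 222, 219 and 215 CPM in the fresh libraries and 706, 755 and 710.4 CPM in the stimulated libraries (edgeR log2 fold change 1.73 ± 0.05 SE, adjusted p = 7.3e-14). Its fresh and stimulated libraries each lay within a narrow band.

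The orphan nuclear receptor genes Nr4a1 and Nr4a3, direct targets of calcium signalling, rose with log2 fold changes of 1.44 and 4.85. Egr2 and Egr3, which restrain activation, rose from 13.2 ± 2.36 to 106 ± 16.5 CPM and from 8.41 ± 1.13 to 63.9 ± 6.91 CPM. Tbx21, the T-bet gene of effector differentiation, rose from 12.7 ± 1.2 to 89.7 ± 5.1 CPM and Eomes, its relative, from 63.2 ± 8.94 to 170.2 ± 16.2 CPM. Zbtb32, a repressor with low levels in resting cells, rose from 2.09 ± 0.352 to 135 ± 4.78 CPM. Hif1a, the oxygen-sensing factor that also supports glycolysis in T cells, rose from 136 ± 3.53 to 373 ± 13.02 CPM.

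Immediate-early factors of the AP-1 family ran the other way. Fos measured 1211, 789.8 and 961 CPM in the fresh libraries and 9.37, 10.4 and 11.6 CPM in the stimulated libraries (edgeR log2 fold change -6.56 ± 0.24 SE, adjusted p = 6.3e-13), and every fresh library held far more than any stimulated one. Fosb fell from 312 ± 118 to 11.8 ± 0.348 CPM, Jun from 156 ± 47.8 to 44.5 ± 2.31 CPM and Junb from 639 ± 45.9 to 129.9 ± 15.8 CPM. These genes answer to stress and handling within minutes as well as to the antigen receptor. Dusp1, a phosphatase of the same immediate-early kind, fell from 194 ± 23.7 to 8.43 ± 0.189 CPM. How much of the fresh level arose during isolation was not tested. Batf fell by 0.61 on the log2 scale and Prdm1 by 1.31, while Nfatc1 and Id3 were not called (log2 fold changes 0.08 and 0.18, edgeR adjusted p = 0.21 and 0.24). Id3 was called with the 6 wild-type libraries alone (edgeR adjusted p = 0.0347).

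Effector genes were raised in part. Of 25 tested effector cytokine and cytotoxicity genes, 13 were at least 2-fold higher and 5 at least 2-fold lower. Gzmb, the granzyme through which killer cells start apoptosis in targets, measured 22.7, 19.3 and 19.3 CPM in the fresh libraries and 1242, 1388 and 1121 CPM in the stimulated libraries (edgeR log2 fold change 5.93 ± 0.19 SE, adjusted p = 1.7e-13). Ifng, the interferon gamma gene, measured 7.41, 5.91 and 8.32 CPM in the fresh libraries and 190.2, 259 and 283 CPM in the stimulated libraries (edgeR log2 fold change 5.10 ± 0.17 SE, adjusted p = 2.4e-13). In both genes the groups were far apart, and stimulated libraries of Ifng spread more than those of Gzmb.

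Gzma, another granzyme gene, fell from 33.3 ± 2.43 to 0.562 ± 0.154 CPM, so the granzymes did not move together. Prf1, the pore-forming perforin gene, changed little, from 49.5 ± 1.42 to 64.6 ± 3.41 CPM (edgeR log2 fold change 0.38 ± 0.08 SE, adjusted p = 2.3e-04). Tnf rose from 5.66 ± 0.534 to 85.3 ± 14.8 CPM and Lta, the lymphotoxin alpha gene, from 8.28 ± 0.632 to 284 ± 18.7 CPM, whereas Ltb, its partner in the membrane-bound complex, fell from 351 ± 15.5 to 171 ± 14.7 CPM. Il2 had 7.46, 19.6 and 23.4 CPM in the stimulated libraries, a spread wider than for the other cytokines, against 0.182, 0.0484 and 0.333 CPM in the fresh ones (edgeR log2 fold change 6.56 ± 0.62 SE, adjusted p = 7.1e-08). Csf2, the GM-CSF gene, rose from 0.277 ± 0.183 to 10.98 ± 2.28 CPM.

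Il3, the multilineage growth factor gene, had no count in any fresh library and 280 counts over the 3 stimulated ones, with 4.16, 3.47 and 5.2 CPM. With 3 counts taken as the floor of the fresh group as a whole, that is at least 75.0-fold higher, a bound that covers counting error only. Chemokine genes for attracting other immune cells rose with them. Xcl1, whose product attracts cross-presenting dendritic cells, measured 5.95, 3.68 and 3.66 CPM in the fresh libraries and 673, 794 and 984 CPM in the stimulated libraries (edgeR log2 fold change 7.53 ± 0.24 SE, adjusted p = 1.1e-13). Ccl3 rose from 3.99 ± 0.862 to 691 ± 164 CPM and Ccl4, a chemokine of the same family, from 8.16 ± 0.947 to 665 ± 91.2 CPM. Of 9 tested chemokines 7 were at least 2-fold higher and 2 at least 2-fold lower. Ccl5, a chemokine of memory and late effector cells, fell from 88.9 ± 12.3 to 25.3 ± 2.56 CPM and Cxcl9 from 13.9 ± 2.83 to 2.35 ± 1.09 CPM.

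Cytokine receptors rose or fell by type. Il12rb1 and Il12rb2, the chains of the interleukin 12 receptor, rose from 17.97 ± 1.79 to 179 ± 12.9 CPM and from 7.11 ± 0.62 to 114 ± 17.5 CPM. Il6ra fell from 244 ± 5.34 to 10.6 ± 0.514 CPM, Tgfbr2 from 412 ± 10.1 to 86.3 ± 2.61 CPM and Ifngr1, the ligand-binding chain for interferon gamma, from 179.9 ± 6.42 to 44.5 ± 3.98 CPM. Of 30 tested genes of cytokine receptors and their feedback, 10 were at least 2-fold higher and 9 at least 2-fold lower. Cish, a STAT5 target that damps cytokine and receptor signals, measured 4.56, 4.41 and 3.33 CPM in the fresh libraries and 177, 202 and 193 CPM in the stimulated libraries (edgeR log2 fold change 5.53 ± 0.09 SE, adjusted p = 3.3e-16). Socs2 rose from 1.84 ± 0.268 to 16.9 ± 2.56 CPM, while Socs3, the inhibitor of interleukin 6 signalling, fell from 93.95 ± 2.07 to 24.4 ± 2.25 CPM.

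Brakes on receptor signalling moved in both directions as well. Of 26 tested feedback genes 8 were at least 2-fold higher and 9 at least 2-fold lower. Rgs16, which turns off signals from chemokine receptors, measured 2.73, 1.74 and 2.6 CPM in the fresh libraries and 293, 358 and 405 CPM in the stimulated libraries (edgeR log2 fold change 7.25 ± 0.17 SE, adjusted p = 6.0e-15). Spry1, an inhibitor of the ERK pathway, rose from 2.95 ± 0.835 to 91.99 ± 23.4 CPM. Cblb, a ubiquitin ligase that raises the activation threshold, rose from 139 ± 11.2 to 360.4 ± 11.8 CPM. Tnfaip3, the A20 gene that limits NF-kappaB, fell from 1157 ± 83.8 to 131 ± 6.14 CPM, and Dgka, which removes diacylglycerol, fell from 1126 ± 52.2 to 185 ± 5.27 CPM.

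**Figure D2:**
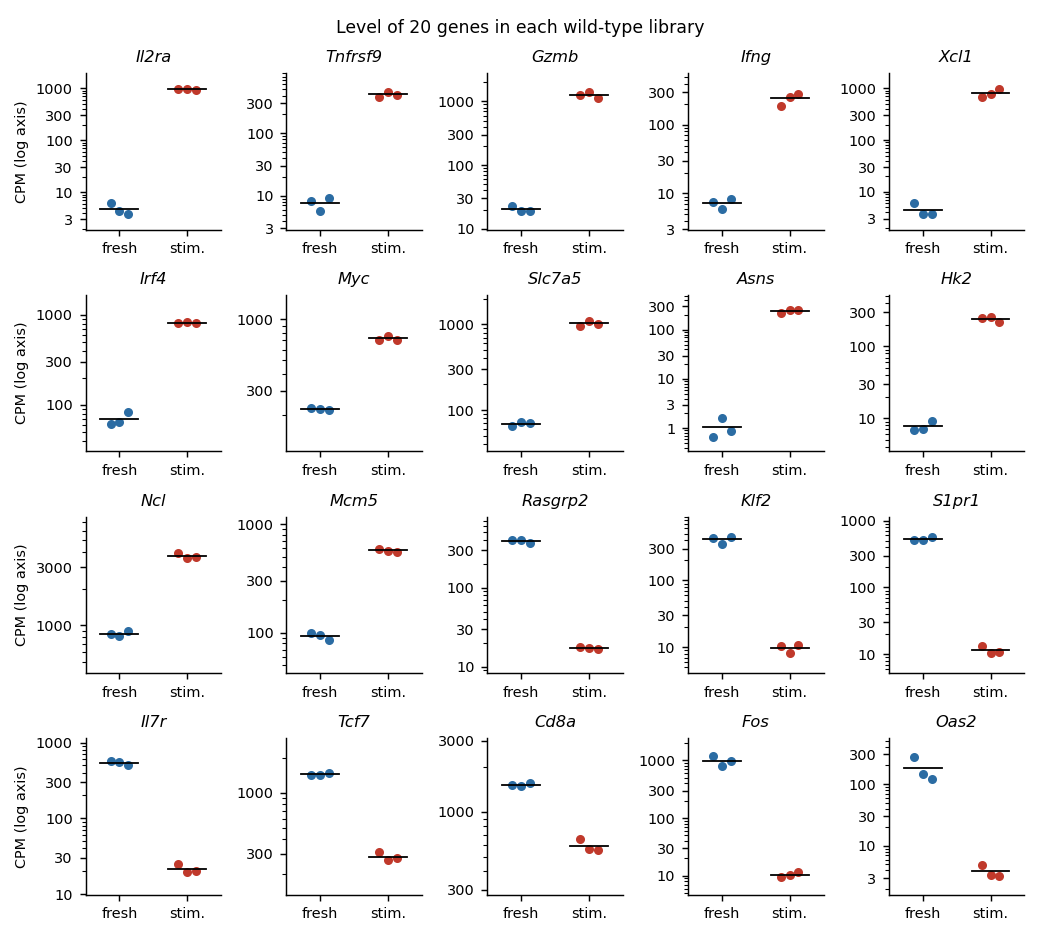
CPM of 20 genes (vertical axes, log scale, each panel with its own range) in the 3 fresh and the 3 stimulated wild-type libraries; points are libraries and bars the mean of a group. In none of the 20 panels do the groups overlap: Il2ra goes from 4.77 ± 1.26 to 945 ± 28.5 CPM and Klf2 from 415 ± 51.6 to 9.75 ± 1.32 CPM.

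Amino acid supply was among the groups that rose furthest. All but 1 of 28 tested genes for uptake, serine synthesis and one-carbon metabolism were called higher, 24 of them at least 2-fold, none was called lower, and the median log2 fold change was 2.54. Asns (chr6:7675165-7693209), the asparagine synthetase gene, measured 0.668, 1.6 and 0.866 CPM in the fresh libraries and 225, 258 and 248 CPM in the stimulated libraries (edgeR log2 fold change 7.80 ± 0.15 SE, adjusted p = 7.8e-16). Slc7a5, the large neutral amino acid transporter that activated T cells depend on, measured 65.7, 72.3 and 70.04 CPM in the fresh libraries and 958, 1106 and 1019 CPM in the stimulated libraries (edgeR log2 fold change 3.89 ± 0.06 SE, adjusted p = 3.0e-16). Slc7a11, the cystine importer gene, was barely detected in fresh cells and rose from 0.0991 ± 0.0726 to 20.5 ± 3.44 CPM.

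Phgdh and Shmt2, enzymes of serine and glycine synthesis, rose from 108 ± 0.732 to 775 ± 50.05 CPM and from 142 ± 6.93 to 865 ± 45.2 CPM. Mthfd2, the mitochondrial folate enzyme, rose from 25.1 ± 1.58 to 381 ± 7.72 CPM. Cth, which makes cysteine, and Bcat1, which starts the breakdown of branched-chain amino acids, rose with log2 fold changes of 8.80 and 7.40. Slc6a9, a glycine transporter gene, rose with 8.50. Atf4, the transcription factor of amino acid shortage, rose from 214 ± 4.85 to 538 ± 28.1 CPM, and Chac1, one of its known targets, from 0.279 ± 0.127 to 43.8 ± 7.29 CPM.

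Genes that charge transfer RNAs with amino acids moved in step. All 20 tested cytosolic aminoacyl-tRNA synthetases were called higher, 16 at least 2-fold, with a median log2 fold change of 2.00. Aars, the alanyl-tRNA synthetase gene, measured 58.9, 57.7 and 55.7 CPM in the fresh libraries and 481, 518 and 526 CPM in the stimulated libraries (edgeR log2 fold change 3.15 ± 0.05 SE, adjusted p = 3.3e-16). Nars, for asparagine, rose from 115 ± 1.73 to 681 ± 5.66 CPM, and Wars, for tryptophan, from 75.3 ± 4.59 to 287 ± 17.6 CPM.

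Promoter windows of these genes are shown because members of both lists moved together and ATF4 is known to bind a composite element in several of them. Windows come from RefSeq on GRCm38.p6 and run from 250 bases before to 50 bases after each annotated start; 10179 of the 12759 tested genes had at least 1. The letters TGATGNAA were searched on both strands. They occurred in 6 of 25 windowed amino acid supply genes (24.0%) and 5 of 13 windowed synthetase genes (38.5%), against 2.95% of all tested genes with a window, 3.93% of those at least 2-fold higher and 3.75% of those at least 2-fold lower. In the sequences below, written 5′ to 3′ on the strand of the gene and ending at or before its start, capitals mark each match. The match begins 23 bases before the start in Asns (chr6:7693210-7693282, minus strand), the nearest of 2 matches 47 bases before in Slc7a11 (chr3:50443614-50443729, minus strand), and 112 bases before in Aars (chr8:111033680-111033787, plus strand). A match of letters is a description and not a shown binding site. Lists here and in the later searches were put together by function, and known targets of a factor may be among them. Their shares therefore describe the lists only, and whether the factors acted in these cells was not tested.
Asns: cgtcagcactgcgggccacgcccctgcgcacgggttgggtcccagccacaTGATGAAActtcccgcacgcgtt
Slc7a11: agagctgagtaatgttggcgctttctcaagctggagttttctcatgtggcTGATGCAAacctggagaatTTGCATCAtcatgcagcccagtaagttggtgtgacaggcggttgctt
Aars: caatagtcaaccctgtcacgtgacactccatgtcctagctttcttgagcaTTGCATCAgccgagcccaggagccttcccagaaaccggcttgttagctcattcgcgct

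Glucose metabolism rose at most steps. Of 23 tested genes of glycolysis and lactate handling, 15 were at least 2-fold higher and 1 at least 2-fold lower. Hk2, the hexokinase of growing cells, measured 6.92, 7.07 and 9.12 CPM in the fresh libraries and 245, 260.4 and 220.2 CPM in the stimulated libraries (edgeR log2 fold change 4.98 ± 0.11 SE, adjusted p = 4.1e-15). Tpi1 rose from 54.2 ± 2.24 to 537 ± 120.0 CPM, Pgk1 from 208 ± 11.1 to 1339 ± 163 CPM and Ldha, which makes lactate from pyruvate, from 484 ± 19.4 to 1798 ± 221 CPM. Slc16a3, a lactate exporter gene, rose from 2.57 ± 0.0856 to 47.7 ± 19.8 CPM, and Slc2a1, the GLUT1 glucose transporter, from 40.96 ± 3.09 to 141 ± 21.1 CPM. Slc2a3, the GLUT3 gene, was not called and its groups overlapped, at 78.95, 74.6 and 79.2 CPM in the fresh libraries and 79.2, 75.9 and 52.8 CPM in the stimulated libraries. Pdk1, which inhibits pyruvate dehydrogenase, fell by 1.46 on the log2 scale.

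Targets of hypoxia signalling outside glycolysis rose unevenly, 7 of 13 tested by at least 2-fold, and 2 were called lower. Vegfa rose from 0.992 ± 0.0775 to 77.8 ± 9.19 CPM, but Egln3 and Bnip3 varied among the stimulated libraries. Egln3 had 48.04, 65.4 and 21.4 CPM and Bnip3 28.95, 28.3 and 9.68 CPM there. Stimulated replicate 3 was the lowest of the 3 in both genes, yet every stimulated library lay above every fresh one.

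Genes that make nucleotides and lipids were mostly higher. Of 24 tested nucleotide synthesis genes 21 were at least 2-fold higher and none at least 2-fold lower. Cad, which starts pyrimidine synthesis, rose from 189.7 ± 4.37 to 646 ± 6.34 CPM. Odc1, the rate-limiting enzyme of polyamine synthesis, rose from 126 ± 16.04 to 697 ± 11.4 CPM. Among 27 tested genes of cholesterol and fatty acid synthesis 18 were at least 2-fold higher and 1 at least 2-fold lower. Idi1, of the isoprenoid branch, measured 17.1, 16.03 and 16.8 CPM in the fresh libraries and 285, 234 and 221 CPM in the stimulated libraries (edgeR log2 fold change 3.89 ± 0.09 SE, adjusted p = 8.1e-15). Sqle, an oxygen-dependent step of sterol synthesis, rose from 9.41 ± 1.3 to 104 ± 11.7 CPM.

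Sterol export moved in the opposite direction. Of 6 tested genes none was called higher and 5 were at least 2-fold lower. Abca1 and Abcg1, the cholesterol exporters driven by liver X receptors, fell from 66.7 ± 12.9 to 8.31 ± 1.36 CPM and from 162 ± 8.81 to 41.3 ± 3.26 CPM. Mylip, a ubiquitin ligase gene that liver X receptors also drive, fell from 69.5 ± 4.04 to 9.58 ± 0.267 CPM. The letters CACCCCAC, the core of a known sterol response element, were searched on both strands in the same windows. They occurred in 1 of 18 windowed synthesis genes, Hmgcs1 (5.56%), against 3.71% of all tested genes with a window, so that search did not set the list apart.

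Mitochondrial genes encoded in the nucleus rose by less. Of 21 tested tricarboxylic acid cycle genes 19 were called higher, but only 2 by 2-fold or more, with a median log2 fold change of 0.39. Among all tested genes 40.8% were called higher and 18.7% at least 2-fold higher, so the 2-fold count does not set this list apart. Without stimulated replicate 1 the 2-fold count is 4. Of 27 tested genes of the respiratory chain and ATP synthase 26 were called higher and 7 passed 2-fold. Cycs, the cytochrome c gene, rose from 76.4 ± 2.12 to 294 ± 7.95 CPM. Mitochondrial ribosomal proteins rose almost without exception, 73 of 75 being called higher and none lower, with a median of 0.96.

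Ribosome assembly and ribosomal protein messages did not go together. All 42 tested ribosome biogenesis genes were called higher, 38 at least 2-fold, and their summed level went from 5699, 5701 and 5867 CPM to 18640.0, 18050.0 and 18420.0 CPM. Ncl, the nucleolin gene, measured 841, 808 and 891 CPM in the fresh libraries and 3909.6, 3559 and 3647 CPM in the stimulated libraries (edgeR log2 fold change 2.13 ± 0.06 SE, adjusted p = 6.7e-14). Nolc1, a nucleolar scaffold, rose from 136 ± 1.1 to 606 ± 15.5 CPM and Polr1b, a subunit of RNA polymerase I, from 67.7 ± 3.64 to 245 ± 4.41 CPM. Messages of the 80 tested cytosolic ribosomal proteins were mostly lower in share: 56 were called lower and 7 higher, with a median log2 fold change of -0.30. Their summed level went from 112700.0, 108800.0 and 118900.0 CPM to 83630.0, 95470.0 and 94290.0 CPM. Rpl7l1 and Rps27l, paralogs of ribosomal protein genes, were the 2 that rose at least 2-fold. Ribosomal protein genes have many near-identical pseudogene copies, so their counts are uncertain.

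The letters CACGTG, the E-box that MYC is known to bind, were found in 8 of 37 windowed ribosome biogenesis genes (21.6%), against 11.8% of all tested genes with a window, 13.5% of those at least 2-fold higher and 9.90% of those at least 2-fold lower. The word reads the same on both strands. Nop2, an RNA methyltransferase gene of ribosome assembly, rose from 78.6 ± 3.15 to 312 ± 7.18 CPM. It changed most among the members with a match and is shown (chr6:125131773-125131878, plus strand). Its match begins 60 bases before the start, while no other member had a match wholly before an annotated start.
Nop2: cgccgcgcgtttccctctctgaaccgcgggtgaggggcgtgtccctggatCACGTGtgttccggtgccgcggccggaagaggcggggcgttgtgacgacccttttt

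Translation, folding and degradation machinery rose. Of 21 tested translation factors 13 were at least 2-fold higher and 1 at least 2-fold lower. Eif4ebp1, whose product restrains cap-dependent initiation until mTORC1 phosphorylates it, measured 6.26, 5.18 and 6.06 CPM in the fresh libraries and 139, 172 and 157 CPM in the stimulated libraries (edgeR log2 fold change 4.75 ± 0.10 SE, adjusted p = 1.9e-15). Eif5a, the factor modified with a polyamine, rose from 415 ± 12.6 to 1849.8 ± 87.2 CPM. Pdcd4, an inhibitor of the initiation helicase, fell from 366 ± 20.4 to 88.02 ± 8.41 CPM. The elongation factors Eef1a1 and Eef2 were called lower with small log2 fold changes of -0.30 and -0.15, and the Eef2 call was lost without fresh replicate 3 or stimulated replicate 1 (edgeR adjusted p = 0.065 and 0.091).

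Among 27 tested chaperones 17 were at least 2-fold higher and none at least 2-fold lower. Hspd1, a mitochondrial chaperonin, rose from 199 ± 6.49 to 1389 ± 77.5 CPM, and Hsp90ab1 had the largest gain in CPM of any gene, from 1776 ± 20.4 to 5042 ± 33.1 CPM. Of 42 tested proteasome genes 24 were at least 2-fold higher and 2 at least 2-fold lower. Psmd7 rose from 55.96 ± 1.39 to 196 ± 3.28 CPM, whereas Psmb10, an immunoproteasome subunit, fell from 143 ± 7.56 to 62.1 ± 3.36 CPM.

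Cell cycle genes rose. Of 35 tested DNA replication genes all were called higher and 34 passed 2-fold, with a median log2 fold change of 2.51. Mcm5, a subunit of the replicative helicase, measured 100.4, 94.6 and 84.8 CPM in the fresh libraries and 589, 571 and 558 CPM in the stimulated libraries (edgeR log2 fold change 2.62 ± 0.06 SE, adjusted p = 6.0e-15). Orc1, of the origin recognition complex, rose from 2.47 ± 0.436 to 50.5 ± 4.08 CPM, Cdc6, which loads the helicase, from 6.81 ± 0.537 to 93.7 ± 9.04 CPM, and Uhrf1, which keeps DNA methylation through replication, from 45.8 ± 5.81 to 464 ± 36.02 CPM. E2f1, the factor that drives entry into S phase, rose from 9.6 ± 1.92 to 64.2 ± 6.99 CPM.

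The letters TTTNGCGC, a form of the E2F site, were searched on both strands and occurred in 11 of 30 windowed replication genes (36.7%), against 2.85% of all tested genes with a window, 3.93% of those at least 2-fold higher and 1.45% of those at least 2-fold lower. Of the members with a match, the 2 with the largest change are shown, Orc1 (chr4:108579377-108579453, plus strand; the match begins 27 bases before the start) and Uhrf1 (chr17:56304078-56304185, plus strand; 185 bases before).
Orc1: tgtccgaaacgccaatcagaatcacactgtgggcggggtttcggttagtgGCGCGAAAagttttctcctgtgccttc
Uhrf1: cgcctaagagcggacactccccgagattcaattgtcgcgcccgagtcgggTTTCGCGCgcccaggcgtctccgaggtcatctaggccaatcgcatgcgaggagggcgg

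Mitotic genes rose too. Of 23 tested 22 were at least 2-fold higher, all but Ccnb2, which was called only without fresh replicate 2 (edgeR adjusted p = 0.025) or without stimulated replicate 3 (0.011). Top2a, which untangles DNA, measured 125, 131 and 108 CPM in the fresh libraries and 738, 568 and 546 CPM in the stimulated libraries and Mki67, the Ki-67 gene, measured 169, 176 and 149 CPM in the fresh libraries and 612, 456 and 433 CPM in the stimulated libraries. Both were already present in each fresh library and varied among the stimulated ones. Aurkb, a kinase of chromosome segregation, rose from 8.21 ± 1.21 to 62.2 ± 7.27 CPM and Cdk1 from 10.4 ± 0.964 to 67.3 ± 5.52 CPM.

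Regulators of the first gap phase were split, with 8 of 18 tested at least 2-fold higher and 5 at least 2-fold lower. Ccnd2, the cyclin D gene that lymphocytes use, rose from 625 ± 27.3 to 1401 ± 8.59 CPM and Cdk6, its partner kinase, from 23.8 ± 0.467 to 134 ± 4.76 CPM. Ccnd3, the other lymphocyte D cyclin, fell from 152 ± 6.61 to 114 ± 7.7 CPM. The inhibitors moved in both directions: Cdkn1b, the p27 gene of quiescence, fell from 129.8 ± 3.73 to 38.03 ± 2.01 CPM and Rbl2, a pocket protein of resting cells, from 137 ± 1.89 to 44.7 ± 2.12 CPM, whereas Cdkn1a, the p21 gene, rose from 2.59 ± 0.316 to 45.8 ± 12.3 CPM. Of 25 tested replication-dependent histone genes, out of 64 listed, 16 were at least 2-fold higher and 5 lower. Most histone messages have no poly(A) tail, and Hist1h1c, a linker histone gene, fell from 30.6 ± 4.45 to 1.78 ± 0.116 CPM.

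Of 17 tested survival and death genes 3 were at least 2-fold higher and 3 at least 2-fold lower. Among all tested genes the shares were 18.7% and 21.5%, so these counts do not set the list apart. Bcl2l1, the BCL-XL gene, measured 14.4, 13.1 and 16.4 CPM in the fresh libraries and 193, 177 and 187 CPM in the stimulated libraries (edgeR log2 fold change 3.68 ± 0.10 SE, adjusted p = 1.9e-14). Bcl2 rose from 197 ± 17.8 to 353 ± 25.9 CPM, and Mcl1 fell by 0.29 on the log2 scale. Of the death-promoting members, Bcl2l11, the BIM gene, rose from 73.2 ± 7.37 to 109.6 ± 4.57 CPM and Bmf fell from 13.2 ± 1.74 to 4.79 ± 0.507 CPM.

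Genes that answer to interferon moved in 2 directions. Of 27 tested genes of the type I interferon response 26 were called lower and 24 fell by at least 2-fold. Oas2, a sensor of double-stranded RNA, measured 275, 144 and 121 CPM in the fresh libraries and 4.96, 3.42 and 3.24 CPM in the stimulated libraries (edgeR log2 fold change -5.55 ± 0.30 SE, adjusted p = 5.8e-11). Irf7, the factor that amplifies the response, measured 351, 204 and 212 CPM in the fresh libraries and 15.03, 17.9 and 11.7 CPM in the stimulated libraries (edgeR log2 fold change -4.11 ± 0.22 SE, adjusted p = 5.6e-11). Fresh replicate 1 was the highest in both genes, and the summed level of the list there was 4589, 2981 and 3012 CPM in fresh replicates 1, 2 and 3 against 1575, 1558 and 1423 CPM in the stimulated libraries. Without fresh replicate 1 the count at least 2-fold lower is again 24.

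The guanylate-binding proteins and immunity-related GTPases, which answer chiefly to interferon gamma, were mixed, with more genes higher than lower. Of 14 tested 10 were called higher, 5 of them by at least 2-fold, and 3 lower, 1 by at least 2-fold. Their median log2 fold change was 0.61 in wild-type and 0.045 in knockout cells, and 5 of the 14 were called in the edgeR test of the difference between genotypes described at the end. The members with large rises are given here. Gbp5 measured 45.00, 28.8 and 34.3 CPM in the fresh libraries and 438, 407 and 375 CPM in the stimulated libraries (edgeR log2 fold change 3.50 ± 0.13 SE, adjusted p = 5.0e-13). Gbp2 rose from 116 ± 16.3 to 900.2 ± 108 CPM and Igtp from 164 ± 34.6 to 562 ± 47.00 CPM. Every stimulated library lay above every fresh library in these 3 genes, fresh replicate 1 included.

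A shortened form of the interferon-stimulated response element was searched as GAAANNGAA on both strands. It occurred in 12 of 19 windowed genes of the type I list (63.2%), against 8.82% of all tested genes with a window, 7.75% of those at least 2-fold higher and 10.7% of those at least 2-fold lower. Of the members with a match, the 2 with the largest fall are shown: Rsad2, the viperin gene, which fell from 60.8 ± 35.95 to 1.16 ± 0.164 CPM (chr12:26456513-26456621, minus strand), and Ifit3, which fell from 103 ± 43.7 to 8.72 ± 1.52 CPM (chr19:34583324-34583485, plus strand). All their matches lie on the opposite strand, the nearest beginning 119 and 102 bases before the starts.
Rsad2: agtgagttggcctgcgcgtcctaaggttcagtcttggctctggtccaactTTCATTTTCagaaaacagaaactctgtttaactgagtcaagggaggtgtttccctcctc
Ifit3: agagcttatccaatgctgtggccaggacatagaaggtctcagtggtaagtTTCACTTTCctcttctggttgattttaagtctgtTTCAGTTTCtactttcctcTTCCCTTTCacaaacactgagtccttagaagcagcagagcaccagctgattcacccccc

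Integrin genes mostly fell, while actin and tubulin genes were split. Of 13 tested integrin genes 9 were at least 2-fold lower and 1, Itgav, at least 2-fold higher. Itgae, the CD103 chain that binds epithelial cadherin, fell from 242 ± 28.3 to 18.7 ± 1.83 CPM, Itgb7 from 773 ± 31.5 to 134 ± 3.16 CPM and Itga4, which pairs with it for gut homing, from 618 ± 21.9 to 112 ± 16.7 CPM. Itgal, the LFA-1 chain, rose slightly, from 856 ± 11.8 to 1019.9 ± 28.02 CPM. Of 17 tested genes of actin, tubulin and their partners 8 were called higher and 4 lower, 4 and 2 of them by at least 2-fold. Among all tested genes 18.7% were at least 2-fold higher and 21.5% at least 2-fold lower. The median log2 fold change of the 17 genes was 0.07 (-0.05 with upper-quartile factors). Tubulin Tuba1b rose from 217 ± 8.86 to 799 ± 17.7 CPM, while Vim, the vimentin gene, fell from 389 ± 19.98 to 116 ± 6.42 CPM and Coro1a from 1854 ± 35.8 to 945 ± 80.3 CPM.

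All 8 tested GIMAP genes, small GTPases linked to survival of resting lymphocytes, were called lower and 4 passed 2-fold. Gimap6 fell from 705 ± 29.2 to 217 ± 7.92 CPM. Of 12 tested genes of MHC class I and peptide loading 7 were called lower and 3 higher, but only 2 were at least 2-fold lower, a share below the 21.5% of all tested genes. Among those called lower was H2-K1, from 2531 ± 129.6 to 1291 ± 44.5 CPM, and Tap1 was not called (edgeR adjusted p = 0.23). Of 16 tested lysosome and autophagy genes 5 were at least 2-fold lower and 1 at least 2-fold higher. The protease genes Ctsd and Ctsb fell from 416 ± 14.2 to 161 ± 11.7 CPM and from 184 ± 16.5 to 78.98 ± 3.46 CPM. Gabarapl1 rose from 7.73 ± 0.284 to 45.7 ± 0.162 CPM.

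**Figure D3:**
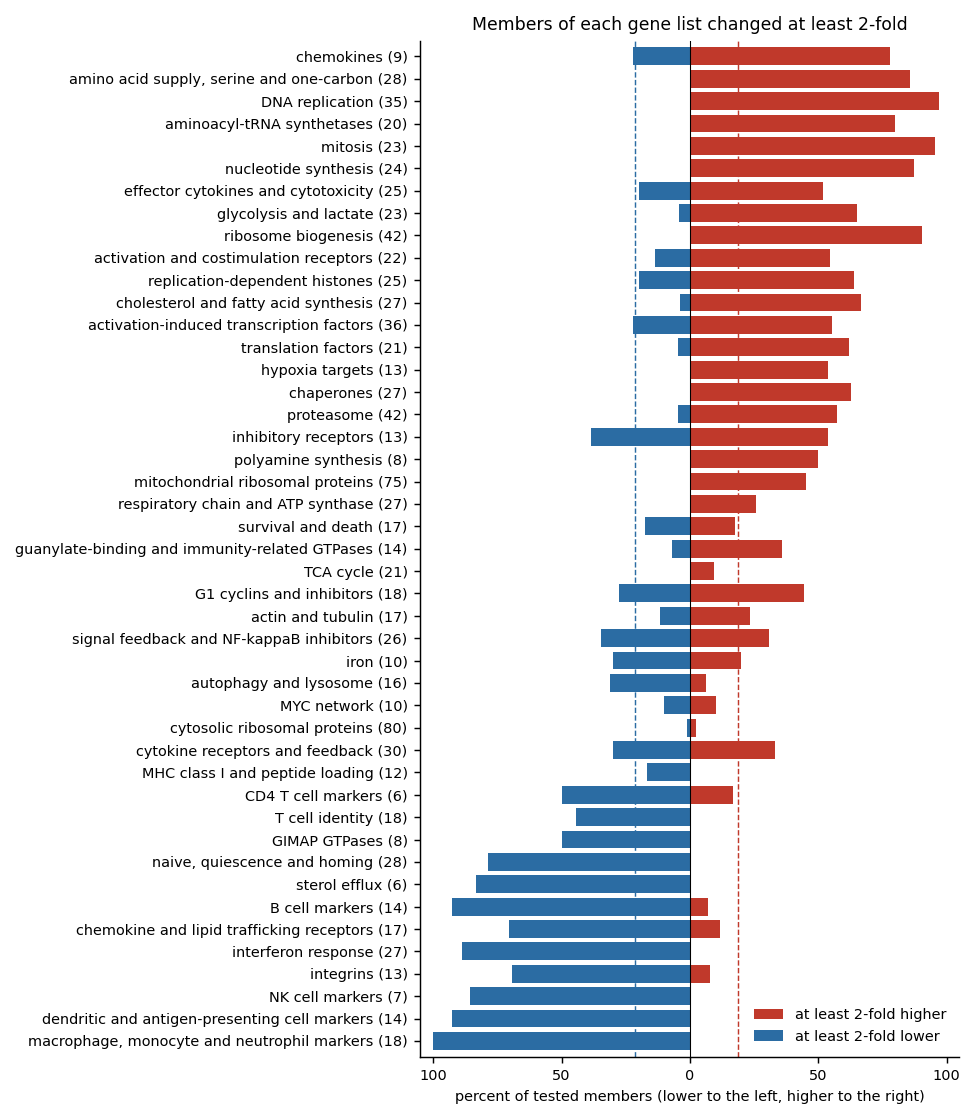
Percent of tested members changed at least 2-fold, higher to the right and lower to the left, for 45 gene lists with the number tested in brackets, ordered by median log2 fold change; dashed lines mark the shares of all tested genes, 18.7% higher and 21.5% lower. Bars of DNA replication (34 of 35), mitosis (22 of 23) and ribosome biogenesis (38 of 42) reach far to the right, and those of myeloid (18 of 18) and antigen-presenting cell markers (13 of 14) far to the left.

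The single genes with the largest rises came from the groups above or stood alone. Spin4, an X-linked spindlin gene (chrX:95022507-95026682), went from 2 counts over the 3 fresh libraries to 1429 over the stimulated ones, a ratio of 574.5 after correction for library size (exact 95% counting interval 158.7 to 4748). Nrn1, the neuritin gene, rose from 0.366 ± 0.191 to 66.96 ± 6.99 CPM. The 10 largest gains in CPM included Hspa8, Ncl, Npm1, Pkm, Eif5a, Hsp90aa1, Ptma and Ldha. Among the largest losses were Macf1, a cytoskeletal linker, from 3827 ± 193 to 735 ± 66.4 CPM, the noncoding RNA Malat1, from 2241 ± 209.9 to 800.1 ± 129 CPM, and the transcription factor Ets1, from 1686 ± 64.9 to 448 ± 17.7 CPM. Fresh libraries concentrated their reads slightly more: 742 to 761 genes held 50% of the counts in fresh cells and 848 to 873 in stimulated cells.

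Among the largest falls were genes known from other cells than CD8 T cells. Of the 12 lowest log2 fold changes, the lowest was that of the Y-linked Kdm5d (-9.45), which is taken up below. Clec9a and Csf1r, receptors of cross-presenting dendritic cells and of macrophages, belonged to the marker lists of other cells. Which cells held the RNA of the rest of the 12 was not tested. Clec9a measured 14.9, 21.5 and 25.97 CPM in the fresh libraries and 0.1, 0.0963 and 0.0416 CPM in the stimulated libraries (edgeR log2 fold change -7.96 ± 0.37 SE, adjusted p = 1.2e-11) and Csf1r fell from 18.8 ± 7.33 to 0.105 ± 0.0592 CPM. Cd7, an immunoglobulin-family receptor of lymphocytes, fell from 201 ± 12.04 to 2.3 ± 0.564 CPM, and Ampd1, an AMP deaminase gene, from 39.04 ± 3.11 to 0.194 ± 0.136 CPM. Trpm2, a calcium channel gene, had 998 counts over the fresh libraries and 3 over the stimulated ones, a ratio of 413.8 after the same correction (exact 95% counting interval 141.2 to 2010).

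Summed markers of other cells were lower in each stimulated library than in any fresh one. For 14 tested dendritic and antigen-presenting cell markers the summed level was 1473, 1650.0 and 1802 CPM in the fresh libraries and 90.8, 106 and 104.7 CPM in the stimulated ones, and 13 were at least 2-fold lower. The MHC class II gene H2-Aa measured 258, 294 and 323 CPM in the fresh libraries and 12.2, 11.5 and 13.5 CPM in the stimulated libraries (edgeR log2 fold change -4.55 ± 0.17 SE, adjusted p = 6.9e-13). All 18 tested macrophage, monocyte and neutrophil markers were at least 2-fold lower, with sums of 249, 296 and 351 CPM against 20.3, 20.8 and 24.5 CPM, and C1qa had 2 counts left in the stimulated libraries.

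B cell markers summed to 246, 230.2 and 219.5 CPM in fresh and 101, 92.7 and 103 CPM in stimulated libraries, with 13 of 14 called lower and only Pou2af1 higher. The NK cell list went from 16.7, 19.4 and 18.8 CPM to 3.41, 2.99 and 3.99 CPM and the CD4 T cell list from 64.9, 61.3 and 77.6 CPM to 22.8, 29.9 and 31.6 CPM, with Cd4 itself falling from 9.34 ± 1.22 to 0.871 ± 0.325 CPM. Members of the CD4 list did not all move one way: of 6 tested, 3 were called lower and 2 higher. Foxp3 was among those higher (log2 fold change 0.75), a call that was lost without fresh replicate 1 or 2 or stimulated replicate 2 (edgeR adjusted p = 0.066 to 0.17). Sums of different lists are not compared, since genes differ in length and expression per cell. The part these cells play in other falls, for example of interferon-response or lysosome genes, was not tested.

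**Figure D4:**
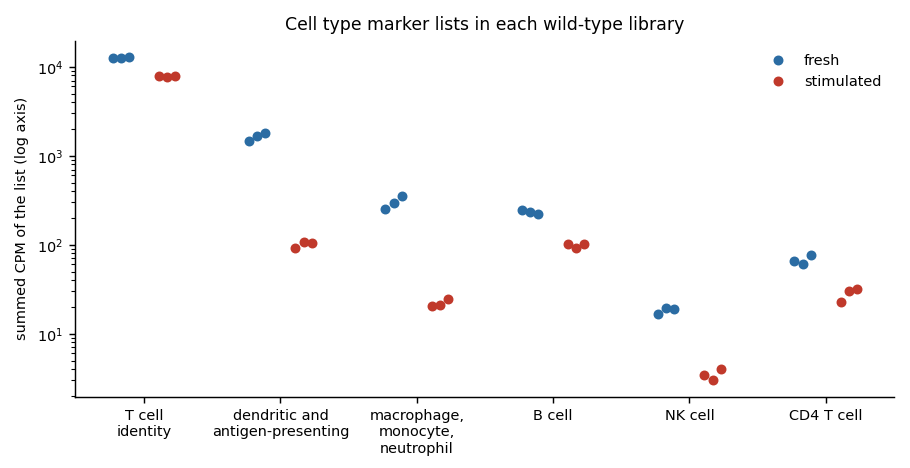
Summed CPM of 6 marker lists (vertical axis, log scale) in each fresh and stimulated wild-type library; each point is a library. Mean sums are 16.3-fold higher in fresh cells for antigen-presenting and 13.7-fold for myeloid markers, while the T cell identity sum goes from 12570.0, 12440.0 and 12890.0 to 7854, 7581 and 7923 CPM.

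Sex-linked genes illustrate a call that rests on single libraries. Kdm5d, Ddx3y and Eif2s3y, all Y-linked, were called lower (edgeR adjusted p = 0.042, 0.041 and 0.043), and without fresh replicate 3 the adjusted p values are 0.93, 0.98 and 0.91. Leaving out any 1 stimulated library also ended these calls, with edgeR adjusted p values from 0.093 to 0.11. Xist, the RNA of the inactive X chromosome, was not called. It had 1953, 2043 and 4.59 CPM in the fresh libraries and 3091, 2683 and 2700.4 CPM in the stimulated libraries. Kdm5d stood at 79.2 CPM in fresh replicate 3. By these genes fresh replicate 3 had a male pattern and the other wild-type libraries a female one. Sex was therefore not balanced between the groups, and its part in other changes was not tested.

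Knockout cells gave a separate set of libraries for the same contrast. Otub1, the targeted gene, stood at 72.6, 70.8 and 45.1 CPM in fresh and 85.7, 100.1 and 96.1 CPM in stimulated wild-type libraries, and at 25.4, 28.8 and 28.6 CPM and 16.2, 13.8 and 14.5 CPM in the knockout ones. In knockout cells 5433 genes were called at least 2-fold changed, against 5122 in wild type, and 4750 were so in both, which is 92.7% of the wild-type genes and 87.4% of the knockout genes. Of the 5122, 5005 (97.7%) were called the same way in knockout cells and none the other way. A call by the test alone was common, 82.3% of all tested genes being called in wild type. An interaction test asked where the change differed between genotypes, and edgeR called 288 of 12759 genes (2.26%), of which 34 differed by at least 2-fold. The wild-type change was the more positive in 199 and the more negative in 89. In 28 of the 288 genes the fitted changes had opposite directions in the 2 genotypes.

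Among genes described above, Klf2 had log2 fold changes of -5.41 in wild type and -6.28 in knockout cells, S1pr1 of -5.54 and -6.24, and Tbx21 of 2.82 and 1.72, and these 3 were called in the interaction test. The S1pr1 call was lost without fresh replicate 1 or 2 or stimulated replicate 1 or 3 (edgeR adjusted p = 0.051 to 0.079). Il2ra (7.63 and 8.18), Gzmb (5.93 and 6.73), Myc (1.73 and 1.62) and Asns (7.80 and 7.73) were not. The count of genes called is unsteady, from 131 to 349 when 1 wild-type library is left out.

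**Figure D5:**
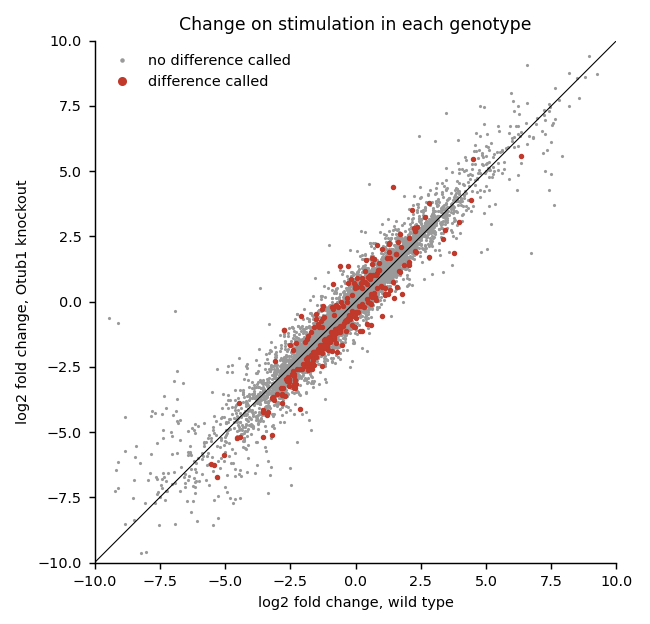
Log2 fold change on stimulation in wild-type cells (horizontal axis) and in Otub1 knockout cells (vertical axis) for tested genes within ±10; each point is a gene, the line marks equal change, and red points are the 288 genes whose change differed by the interaction test. Points lie along the line over the whole range.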

How the data were processed

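For every sample the authors deposited raw counts, whole numbers of reads per gene with no normalization, made with TopHat or TopHat2 and HTSeq on mm10, per the submitters' processing notes, which also name DESeq2. Versions, annotation and strand setting were not given in the sources used here, so overlapping and antisense genes cannot be told apart and genes with near-identical copies are uncertain. The 5 summary lines per file were left out (no feature, 0.189% to 0.499% of a wild-type file's total). Replicate numbers only name libraries, and no replicates agreed within counting noise (chi-square of 4.26 to 9.86 for each degree of freedom).

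Counts were fitted in R 4.3.3 with edgeR 4.0.16: filterByExpr by group (12759 of 23420 genes), TMM factors (0.994 to 1.006 in wild type), a quasi-likelihood model with 1 coefficient per group over all 12 libraries (8 residual degrees of freedom) and two-sided tests with Benjamini-Hochberg adjustment over all tested genes, called under 0.05. With 3 libraries a group, an exact permutation test of 1 gene could not go below 0.10. On simulated counts 131 of 133 genes changed at least 2-fold were called, and 13 unchanged genes. That simulation changed only a small part of its 12372 genes, all of them with ample counts. It therefore cannot give the recovery in these data, where most genes were called. Fold changes of genes with few counts depend on edgeR's prior count. Exact intervals use a level of 95% and a floor of 3 counts over a group, and cover counting error only.

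Members and gene lists were chosen with earlier results of these data known, so list counts describe and support nothing by themselves. The rule for named genes took key list members, the 12 highest and 12 lowest log2 fold changes (average log2 CPM of at least 2, no overlap), the 10 largest gains and losses in CPM, and up to 3 more members a list. Foxp1, Bach2, Slfn2, Lcp2, Pdk1, Ifit3, Ccnb2, Pou2af1 and the genes named by family at the end were chosen after their values were seen. Of the tested genes 11856 matched RefSeq by symbol and 863 by synonym. Alternatives were other scalings, filters, tools (DESeq2 1.42.0, limma 3.58.1), the wild-type libraries alone, and each wild-type library left out.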

Additional observations from a re-analysis of the deposited data

Results flagged for a closer look

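The genes described in the text whose change on stimulation differed between wild-type and knockout cells, by the edgeR interaction test at an adjusted p under 0.05, are given here as wild-type minus knockout differences of log2 fold change. Otub1, the deleted gene, differed by 1.47. Genes that fell in wild type and differed in the positive direction, so that the fall was smaller than in knockout cells, gave these differences: Arhgap4 0.39, Arhgef18 0.55, Cd3e 0.27, Cd3g 0.40, Dgka 0.29, Ifit3 1.61, Il6ra 0.68, Itgb7 0.49, Klf2 0.87, Ltb 0.80, Psmb10 0.54 and S1pr1 0.70. For genes that rose in wild type and differed in the positive direction the differences were Bcl2l11 0.68, Ccl4 0.78, Eomes 0.67, Itgal 0.35, Lcp2 0.38, Pou2af1 0.59, Slfn2 0.35 and Tbx21 1.10. Of these, Bcl2l11 and Itgal had knockout log2 fold changes of -0.10 and -0.10. Negative differences were found for Cdk1 -0.56 and Junb -0.73, Junb having fallen further in wild type and Cdk1 having risen less. Adjusted p values ran from 0.0033 to 0.048, and with 12759 genes tested 288 were called. When each wild-type library was left out in turn, 12 of the 23 genes were called every time. The other 11, namely Ccl4, Cd3e, Cd3g, Cdk1, Dgka, Eomes, Ifit3, Itgal, Pou2af1, S1pr1 and Slfn2, lost the call without at least 1 library (edgeR adjusted p from 0.0505 to 0.132 where lost), and Cd3e lost it whichever of the 6 was left out. Ifit3 belongs to the interferon-response list, whose level was higher in fresh replicate 1 than in the other fresh wild-type libraries. Without that library its difference was 2.02 (edgeR adjusted p = 6.8e-04), and with any other 1 wild-type library left out instead it was not called.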

How the results depend on the processing

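Under other scalings, filters and tools, with the 6 wild-type libraries alone and with each wild-type library left out, counts of genes called higher or lower stayed within 1.5 times the values given. With edgeR's test against a 2-fold change itself, 1923 genes were higher and 2158 lower. Upper-quartile factors shifted the median of all genes by -0.125 on the log2 scale (44.3% of called genes higher, against 49.6%) and turned 1 list median, of actin and tubulin genes, from 0.07 to -0.05. The number of genes that differed between genotypes was 443 with no filter on low counts, 555 with DESeq2, and 131 to 349 when 1 wild-type library was left out (135 without fresh replicate 2, 161 without fresh replicate 3, 131 without stimulated replicate 3), against 288; the cause was not tested. Of 918 list counts at least 2-fold, 895 stayed within 1.5 times, and the other 23 were counts of 5 or fewer. Of 4804 values of 481 genes, 4777 kept direction and call, 22 lost the call, 4 gained it, and 1 reversed: Slc2a3, not called in any of these, at 0.0054 without stimulated replicate 3 and down to -0.27 without stimulated replicate 1, against -0.17. Beyond Ccr7, Id3, Ccnb2 and the Y-linked genes, the genes concerned are Eef2 (adjusted p = 0.065 without fresh replicate 3 and 0.091 without stimulated replicate 1), Foxp3, Nr1h2, Sqstm1 and Zbtb7b. The depth of at least 15064488 counts leaves genes of a few counts, such as Il3 in fresh cells, without a measured fold. No paired analysis was possible because the labels give the libraries no shared replicate numbers.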

Other observations

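Gene families taken by symbol, outside the lists above and chosen after their values were seen, also moved. Of 20 tested nucleoporin genes named Nup, which form the nuclear pore, 17 were called higher and 14 by at least 2-fold, with a median log2 fold change of 1.51. Nup62 rose from 54.2 ± 1.73 to 212 ± 11.4 CPM. Importins and exportins, the carriers through that pore, were called higher in 22 of 23 cases and 12 times by at least 2-fold. Xpot, the exporter of transfer RNA, measured 72.8, 74.5 and 69.8 CPM in the fresh libraries and 414, 444 and 438 CPM in the stimulated libraries (edgeR log2 fold change 2.58 ± 0.05 SE, adjusted p = 1.3e-15). Of 28 RNA polymerase subunit genes 24 were called higher.

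Regulators of small GTPases named Arhgap and Arhgef and of cyclic nucleotides were mostly lower. Of 26 tested Arhgap genes 19 were called lower and 14 by at least 2-fold, the median log2 fold change being -1.08. Among 17 Arhgef genes 10 were called lower. Arhgef18 fell from 385 ± 24.5 to 47.8 ± 3.89 CPM and Arhgap4 from 509 ± 16.5 to 86.5 ± 2.42 CPM. Pde2a, a phosphodiesterase stimulated by cyclic GMP, measured 329, 277 and 281 CPM in the fresh libraries and 18.9, 12.7 and 17.3 CPM in the stimulated libraries (edgeR log2 fold change -4.18 ± 0.13 SE, adjusted p = 8.8e-14), and Pde4b fell from 151 ± 9.03 to 28.1 ± 0.914 CPM. Zinc finger genes named Zfp gave 25 at least 2-fold higher and 35 lower among 313 tested, both shares below those of all tested genes.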
